A study of Mus musculus with 18 samples.

Results

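The clustered protocadherins were followed in mouse neurospheres, floating balls of neural progenitors grown in culture, and in their progeny after 4 days of differentiation. Members were the probe sets of an Affymetrix mouse gene array for which every platform symbol was a Pcdha, Pcdhb or Pcdhg gene. There were 25 of them among 41345 probe sets, of which 25335 carried a symbol. The betas were covered one by one, with 22 probe sets for 22 genes. The alphas were read by 1 probe set that listed 9 genes, and the gammas by 1 that listed 9 genes and 1 for Pcdhga10. The 25 probe sets thus named 41 of the 58 clustered genes that RefSeq (GRCm38.p6) places on mouse chromosome 18. No sequence is shown for them.

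Each of 6 groups held 3 arrays, all from female cultures. The groups were Pcdh19 knockout, mosaic (knockout and wild type cells mixed) and wild type neurospheres at day 4 of differentiation, and the same 3 kinds of culture as undifferentiated neurospheres at day 0. The sources used here do not say what was deleted in Pcdh19, nor in which proportion the mosaic cultures were mixed. The submitters call the replicates technical, so p-values reflect only the spread among arrays, which may be technical, and not that among animals. Day 4 and day 0 arrays differed in marker genes. A list of 7 neural stem cell genes averaged 9.27 to 9.43 (log2 signal) on day 4 arrays and 10.1 to 10.4 on day 0 arrays, and 7 oligodendrocyte genes averaged 8.72 to 9.53 and 5.13 to 5.62. Array medians were 4.85 to 4.99 and r between arrays of a group was 0.981 to 0.986. Pcdh19 itself averaged 5.70 ± 0.17 (SD, n = 3) in knockout, 6.38 ± 0.79 in mosaic and 6.90 ± 0.09 in wild type cultures at day 4. At day 0 it averaged 5.51 ± 0.15, 6.0 ± 0.33 and 6.78 ± 0.11 in the same order, and its probe set may lie outside the deleted part. Mosaic replicates 1, 2 and 3 at day 4 measured 6.54, 7.09 and 5.52 for Pcdh19. Replicate 2 thus lay above all day 4 wild type arrays, and replicate 3 was level with the lowest day 4 knockout array (5.53).

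Clustered protocadherins are cell adhesion proteins with cadherin repeats that bind like copies of themselves on a facing membrane. In the alpha and gamma clusters each variable exon has its own promoter and is spliced to constant exons shared by the cluster, whereas each beta gene is a complete coding exon without the shared tail. In mammalian neurons promoters of the cluster are chosen largely at random, with CTCF and cohesin looping a distant enhancer to the chosen promoter, so that neighbouring neurons carry different sets and branches of 1 cell recognise each other. Pcdh19 is a protocadherin outside these clusters. The comparison asks whether its loss, or the mixing of cells with and without it, changes the family as progenitors differentiate.

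Over differentiation, 9 of 21 tested beta protocadherins rose in knockout cultures and 9 in mosaic cultures, and 0 of the 24 tested members fell in any genotype. The rises were 1.39-fold to 1.84-fold in the knockout and 1.32-fold to 1.93-fold in the mosaic. In the wild type 2 members rose, 1 of the 21 betas and the alpha probe set. Under other settings of the analysis the member counts were 5 to 11 in the knockout, 4 to 11 in the mosaic and 1 to 6 in the wild type. Of all probe sets tested 14.6% rose in the knockout, 13.8% in the mosaic and 17% in the wild type. A test of the difference between genotypes passed for 0 of 24 members, so a larger rise without Pcdh19 is not shown. A change of signal in whole cultures does not tell more cells of a type from more RNA per cell.

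Of the 25 members 24 were tested, since Pcdhb9 lay below the 25th percentile of its array on all 18 arrays. The others lay above it on 17 or 18 arrays, so none was let in by a single group. The fit was limma's on all 18 arrays, with Benjamini-Hochberg adjustment over 21583 probe sets and calls at an adjusted p under 0.05. The SE and interval of a difference thus rest on the spread within all 6 groups, not only within the groups compared. Values of different probe sets cannot be set against each other, because each probe set has its own response. Beta genes resemble each other closely, so signal from a related member was not separated from a gene's own.

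The positions of single arrays were taken first, as the median over the 25 members of each array's deviation from the member's own mean over 18 arrays. Knockout arrays at day 4 had deviations of 0.45, 0.20 and 0.03 (log2, replicates 1, 2 and 3), against -0.06, -0.21 and 0.02 at day 0. Mosaic arrays had 0.14, 0.20 and 0.09 at day 4 and -0.19, -0.24 and -0.22 at day 0. Wild type arrays had -0.04, 0.06 and 0.12 at day 4 and 0.06, -0.18 and -0.04 at day 0. The mosaic days were clearly apart and each close together, the knockout days parted narrowly with a wide day 4, and the wild type days overlapped.

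**Figure D1:**
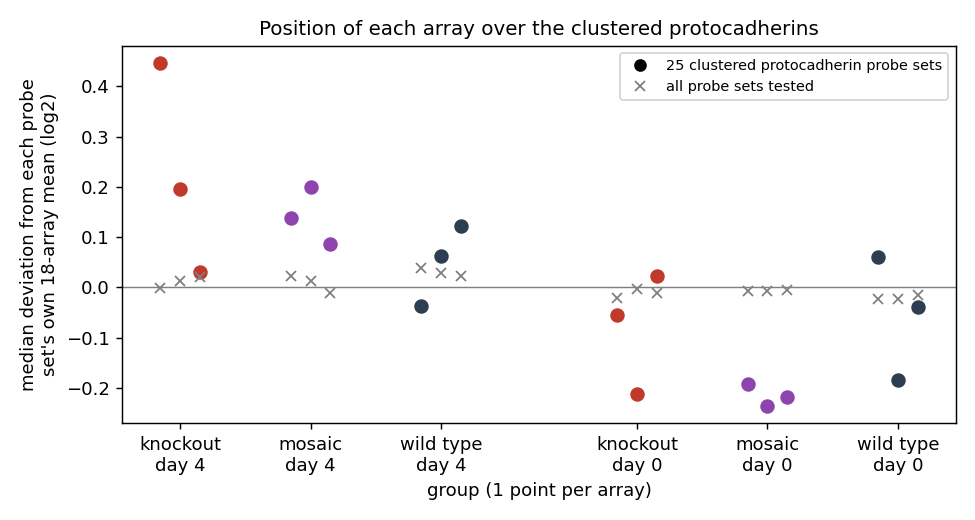
Median deviation (log2) of each array from each probe set's own mean over 18 arrays, for the 25 clustered protocadherin probe sets (coloured dots, 1 per array) and for all 21583 probe sets tested (grey crosses), by group. Mosaic arrays lie at 0.09 to 0.20 on day 4 and -0.24 to -0.19 on day 0, and knockout day 4 replicate 1 is the highest at 0.45.

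In knockout cultures the rise over differentiation was led by Pcdhb10. It measured 5.73, 6.09 and 5.44 at day 4 and 4.70, 4.93 and 4.99 at day 0, so every day 4 array lay above every day 0 array. The log2 change was 0.88 ± 0.13 (SE from all 6 groups, n = 3 per group), a 1.84-fold rise with adjusted p = 7.84e-05 in limma. The SD of Pcdhb10 was 0.33, 0.05 and 0.04 in knockout, mosaic and wild type cultures at day 4. At day 0 its SD was 0.16, 0.04 and 0.17. Pcdhb7 measured 6.39, 6.23 and 6.16 at day 4 against 5.63, 5.34 and 5.71 at day 0, again without overlap. It rose by 0.70 ± 0.14 (1.63-fold, adjusted p = 0.000955 in limma). Pcdhb2 measured 6.43, 6.55 and 5.92 at day 4 against 5.43, 5.31 and 5.70 at day 0, and rose by 0.82 ± 0.19 (adjusted p = 0.00389 in limma). Like the other betas, these 3 genes encode surface proteins that bind their own kind and lack the shared cytoplasmic tail.

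The other betas that rose in the knockout were smaller or more scattered. Pcdhb13 rose by 0.64 with overlapping days, since its day 0 replicate 1 (4.77) lay above its day 4 replicate 2 (4.69). Pcdhb6 rose by 0.51, Pcdhb3 by 0.63, Pcdhb14 by 0.49, Pcdhb12 by 0.48 and Pcdhb5 by 0.68, each with all day 4 arrays above all day 0 arrays. Their adjusted p in limma ran from 0.0084 for Pcdhb13 to 0.0365 for Pcdhb5. The days of Pcdhb5 nearly met, with replicate 1 at 4.414 on day 4 and 4.407 on day 0. Its signal was dim, and its day 0 replicate 2 (3.53) lay below the 25th percentile of that array (3.67). In all, 9 of 24 members were called higher (37.5%) and 0 lower, beside 26.8% of all probe sets called, 14.6% higher and 12.2% lower. At an unadjusted p under 0.05 there were 12 members, beside 35.7% of all probe sets. The median log2 change was 0.31 over the members and 0.02 over all probe sets tested, and 20 of 24 members lay above 0, beside 53.7% of all probe sets. Day 4 lay wholly above day 0 in 9 members, beside 21.7% of all probe sets, and wholly below in 0, beside 16.9%.

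Replicate 1 of the knockout at day 4 held the highest value of its group for many of these genes. Pcdhb15 measured 6.94, 6.10 and 6.03 at day 4 and 5.87, 5.46 and 6.30 at day 0, and its log2 difference of 0.48 did not pass (adjusted p = 0.121). Pcdhb16 measured 7.0, 6.56 and 6.05 at day 4 and 6.10, 5.53 and 6.26 at day 0 (0.57, adjusted p = 0.091). Replicate 1 was also highest for neuronal markers. The mean of 11 neuronal genes on knockout day 4 replicates 1, 2 and 3 was 8.16, 7.87 and 7.62 (log2 signal). In the mosaic at day 4 it was 8.04, 7.79 and 7.41, where the member deviations were 0.14, 0.20 and 0.09. In the wild type at day 4 it was 7.69, 7.73 and 7.74, with deviations of -0.04, 0.06 and 0.12. The part of the neuronal genes in the member values was not tested. Without replicate 1 of day 4, 5 members were called in the knockout, and without replicate 2 of day 0 also 5.

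In mosaic cultures all 24 tested members lay above 0, beside 52.1% of all probe sets, with log2 changes of 0.09 to 0.95. Pcdhb3 measured 6.45, 6.40 and 6.71 at day 4 against 5.45, 5.49 and 5.77 at day 0, with no overlap. It rose by 0.95 ± 0.18 (SE, n = 3 per group), or 1.93-fold, with adjusted p = 0.000841 in limma. Pcdhb7 measured 5.91, 5.91 and 6.09 at day 4 against 5.36, 5.17 and 5.29 at day 0. The day 0 arrays all lay well below those of day 4, and the rise was 0.69 ± 0.14 (adjusted p = 0.00109 in limma). Pcdhb14 measured 6.85, 6.98 and 6.95 at day 4 against 6.23, 5.78 and 6.50 at day 0, where the spread was wide, and rose by 0.76 ± 0.16 (adjusted p = 0.00151 in limma).

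Pcdhb6, Pcdhb10, Pcdhb17, Pcdhb2, Pcdhb5 and Pcdhb12 completed the 9 mosaic members that rose, by 0.53, 0.49, 0.41, 0.59, 0.66 and 0.44. That of Pcdhb12 was nearest to the threshold (adjusted p = 0.0466 in limma). The mosaic share was thus 37.5% higher and 0 lower, beside 25.5% of all probe sets called, 13.8% higher and 11.6% lower. At an unadjusted p under 0.05 there were 12 members, beside 34.9% of all probe sets. The median log2 change was 0.40 over the members and 0.01 over all probe sets. Days did not overlap in 18 of the 24 tested members, all upward, beside 20% of all probe sets upward and 17.6% downward. Knockout and mosaic calls, which come from different arrays but share 1 estimate of the spread, had 8 members in common, or 88.9% of each list. Over all probe sets called higher the overlap was 74.5% of the knockout list and 78.6% of the mosaic list. The mosaic count fell to 5 without replicate 1 of day 4, to 5 without replicate 2 of day 4, and to 6 without replicate 3 of day 4.

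In wild type cultures the alpha probe set and Pcdhb10 rose. Pcdhb10 measured 5.21, 5.25 and 5.28 at day 4 against 4.61, 4.94 and 4.83 at day 0, a rise of 0.46 ± 0.13 (SE, n = 3 per group) with adjusted p = 0.0132 in limma. Day 4 arrays were tightly grouped and lay above all day 0 arrays. The alpha probe set rose by 0.38 ± 0.10 (adjusted p = 0.00591 in limma). The 2 calls were 8.33% of the members, beside 33% of all probe sets called, 17% higher and 16% lower. At an unadjusted p under 0.05 there were 6 members, beside 43.7% of all probe sets. The median log2 change was 0.10 over the members, beside 0.09 over all probe sets, and 17 of 24 members lay above 0, beside 60.5%. Day 4 lay wholly above day 0 in 5 members, beside 27.2% of all probe sets, and wholly below in 0, beside 21.4%.

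Several other betas sat just outside the threshold in the wild type. Pcdhb7, Pcdhb8, Pcdhb6 and Pcdhb3 had log2 differences of 0.36, 0.48, 0.34 and 0.43 with adjusted p of 0.0562, 0.0593, 0.0598 and 0.0796 in limma. With quantile normalization 6 members were called, all higher. With replicate 3 of day 0 left out 4 were called, of which Pcdhga10 was lower (-0.32), and without replicate 1 of day 4 also 4. Pcdhb21 was the lowest wild type member, at 4.80, 5.10 and 5.47 on day 4 against 5.52, 5.19 and 5.56 on day 0 (-0.30, adjusted p = 0.218).

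**Figure D2:**
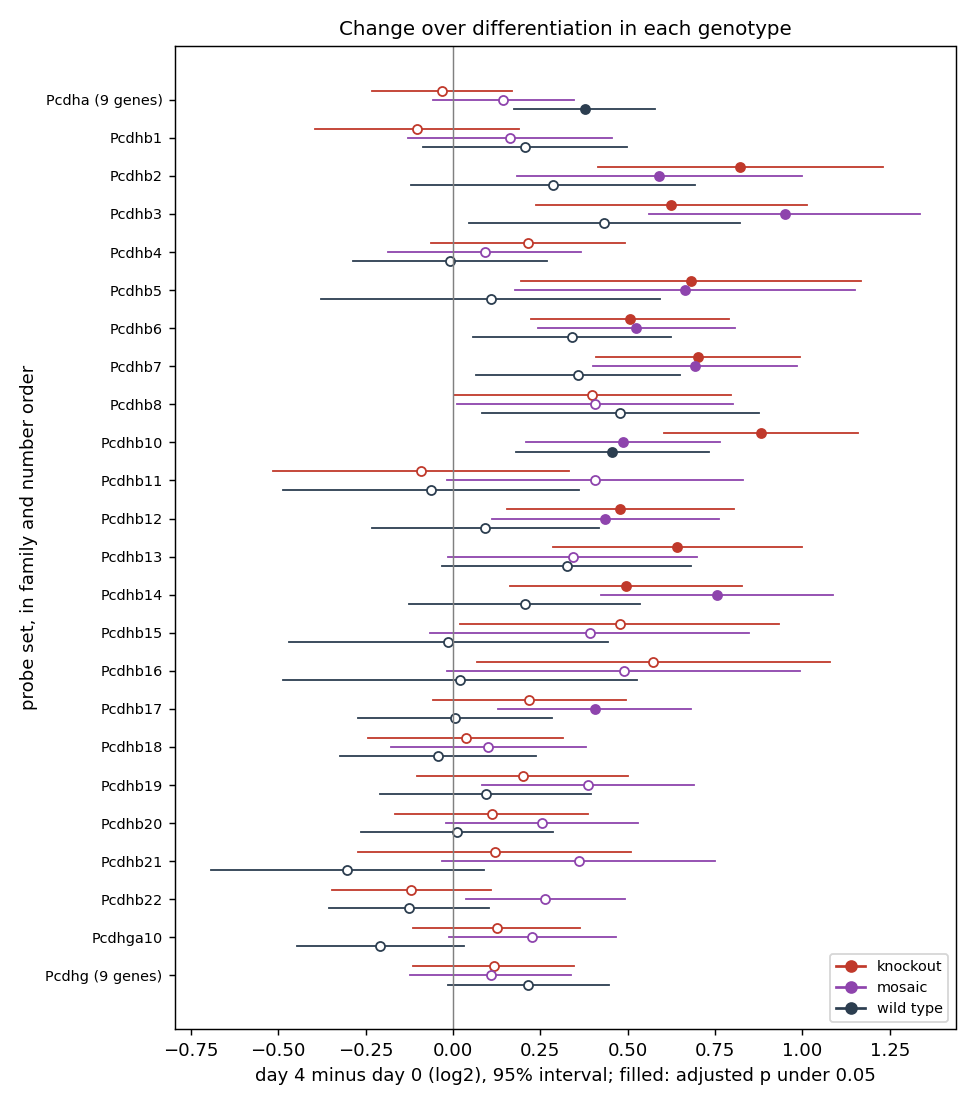
Log2 change from day 0 to day 4 (x axis, dot) with its 95% interval (line) for the 24 tested probe sets (y axis) in knockout, mosaic and wild type cultures. Filled dots passed at an adjusted p under 0.05, which were 9 in the knockout, 9 in the mosaic and 2 in the wild type, and all filled dots lie above 0.

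Along the beta cluster, where numbers follow the order of the genes on the chromosome, calls lay mostly in the first stretch. From Pcdhb1 to Pcdhb14, 13 genes were tested and 9 rose in the knockout, 8 in the mosaic and 1 in the wild type, with median log2 changes of 0.51, 0.49 and 0.29. From Pcdhb15 to Pcdhb22, 8 genes were tested and 0, 1 and 0 rose, with medians of 0.16, 0.37 and -0.0037. This division was drawn after the values were seen and was not tested. Within the first stretch Pcdhb1, Pcdhb4, Pcdhb8 and Pcdhb11 passed in no genotype. Pcdhb8 had log2 differences of 0.40, 0.41 and 0.48 in knockout, mosaic and wild type, with adjusted p of 0.137, 0.132 and 0.0593 in limma. Pcdhb4, for example, measured 5.37, 5.73 and 5.19 at day 4 and 5.19, 5.42 and 5.04 at day 0 in the knockout, and its log2 differences were 0.21, 0.09 and -0.01 in knockout, mosaic and wild type.

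The alpha probe set listed the C-type genes Pcdhac1 and Pcdhac2, of which the second is known from mouse serotonergic axons, along with 7 variable alphas. It measured 5.65, 5.70 and 5.70 in knockout, 5.84, 5.82 and 5.71 in mosaic and 6.05, 5.85 and 5.80 in wild type cultures at day 4. At day 0 it measured 5.75, 5.59 and 5.79, then 5.66, 5.50 and 5.78, then 5.55, 5.61 and 5.41 in the same order. Knockout arrays overlapped between the days, and those of the wild type did not. The log2 changes over differentiation were -0.03 (95% interval -0.23 to 0.17) in the knockout, 0.14 (-0.06 to 0.35) in the mosaic and 0.38 (0.18 to 0.58) in the wild type. The knockout change minus the wild type change was -0.41 (-0.69 to -0.12), with adjusted p = 0.394 in limma. This was the lowest adjusted p of a member in that comparison, and it did not pass.

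The gamma probe sets passed in no comparison of genotypes or days. The probe set of 9 gammas lists Pcdhgc3, Pcdhgc4 and Pcdhgc5, C-type genes of which Pcdhgc4 is needed in mice for the survival of interneurons. It measured 4.60, 4.58 and 4.68 in knockout, 4.65, 4.57 and 4.46 in mosaic and 4.74, 4.69 and 4.87 in wild type cultures at day 4. At day 0 its group means were 4.5 ± 0.15, 4.45 ± 0.19 and 4.55 ± 0.14 (SD, n = 3) in the same order. The day 4 wild type arrays lay above every other day 4 array. Pcdhga10 measured 7.21, 7.23 and 7.09 in knockout, 7.24, 7.46 and 7.13 in mosaic and 6.92, 6.99 and 6.98 in wild type cultures at day 4, so here the wild type lay below both. At day 0 Pcdhga10 averaged 7.05 ± 0.15, 7.05 ± 0.10 and 7.17 ± 0.20, with overlap. A probe set outside the members lists Pcdhga10 with the gene model Gm19774. At day 4 it averaged 11.28 in knockout, 11.16 in mosaic and 11.18 in wild type cultures. There the wild type mean was not below that of the mosaic.

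**Figure D3:**
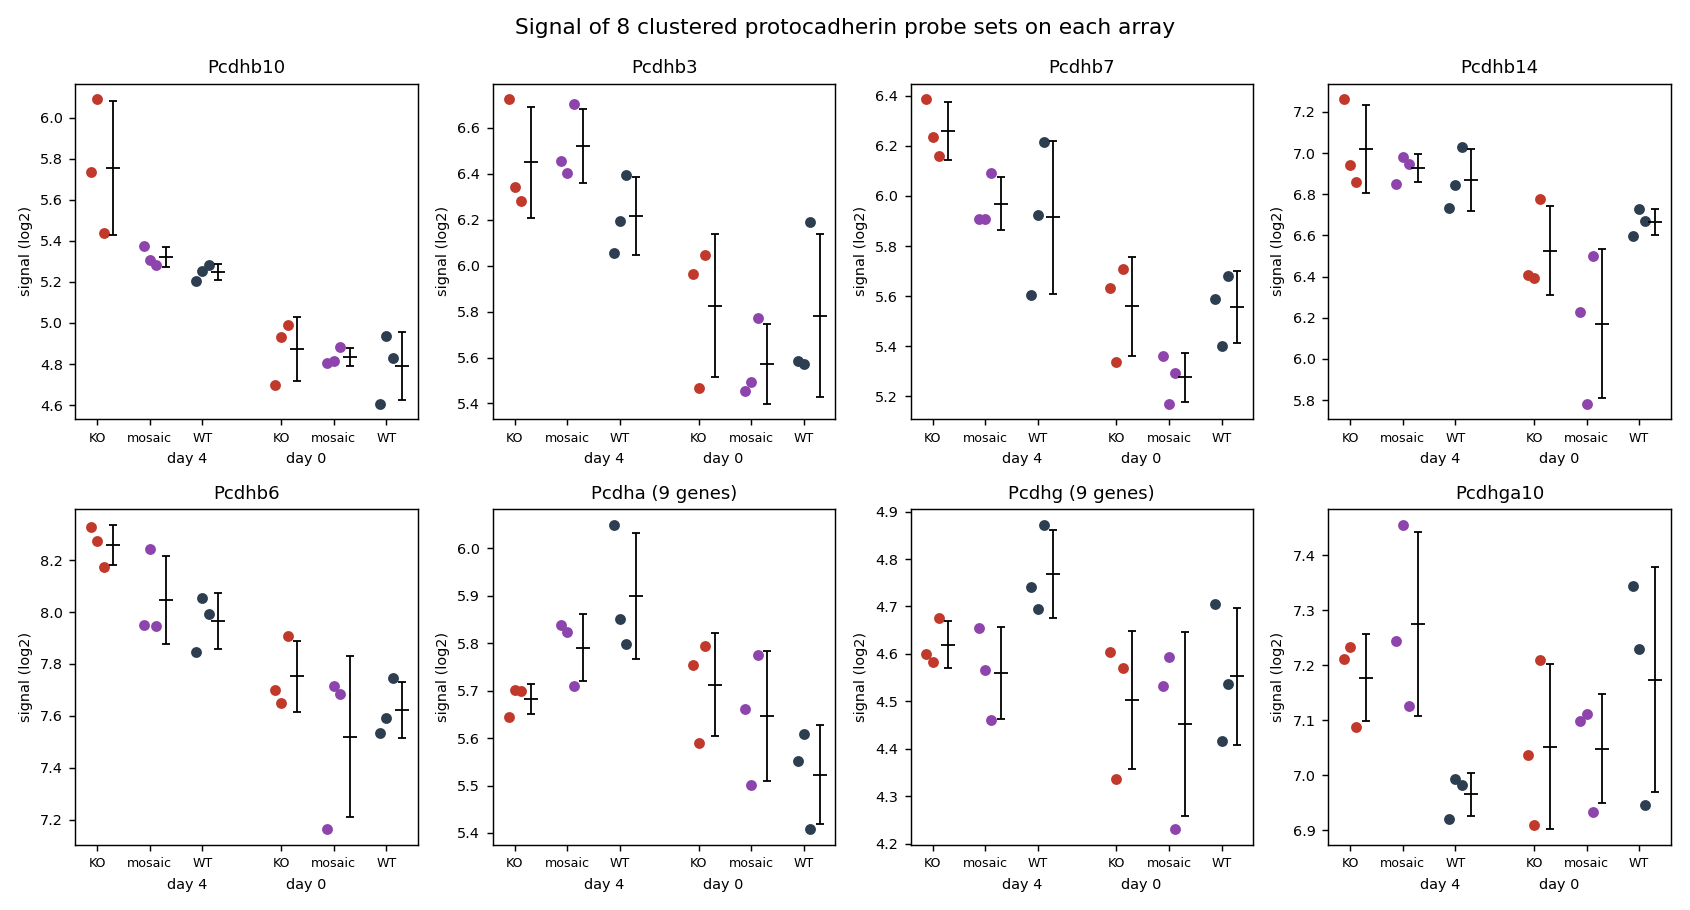
Log2 signal (y axis) of 8 probe sets on each of the 18 arrays (dots), by genotype (KO, Pcdh19 knockout; WT, wild type) and day, with the mean and SD of each group as a bar to the right. Day 4 dots of Pcdhb10 lie above its day 0 dots in all 3 genotypes, and the alpha probe set shows this in the wild type but not in the knockout.

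Between genotypes at day 4 no member passed in limma, nor did any of the 21583 probe sets tested (0% called). Pcdh19 itself, with a log2 difference of -1.20 in knockout minus wild type, was among those that did not pass. Missing calls therefore do not show equal levels. Knockout cultures had 20 of 24 members above the wild type, beside 51.3% of all probe sets, with a median log2 difference of 0.23 beside 0.0055. All members were read on the same arrays, so this count is not one of independent values. By array, the median deviations were 0.45, 0.20 and 0.03 in the knockout and -0.04, 0.06 and 0.12 in the wild type, with overlap. At an unadjusted p under 0.05 there were 7 members, beside 12.7% of all probe sets. Pcdhb10 averaged 5.76 ± 0.33 (SD, n = 3) in knockout and 5.25 ± 0.04 in wild type cultures, and all knockout arrays lay above all wild type arrays. The log2 difference was 0.51 (95% interval 0.23 to 0.79, adjusted p = 0.2 in limma). Pcdhb2 averaged 6.30 ± 0.34 in knockout and 5.68 ± 0.40 in wild type cultures, with overlap (0.62, interval 0.21 to 1.03, adjusted p = 0.251 in limma). Pcdhb15 averaged 6.36 ± 0.51 in knockout and 5.76 ± 0.12 in wild type cultures, without overlap (0.60, interval 0.14 to 1.05, adjusted p = 0.29 in limma).

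The lowest difference between knockout and wild type at day 4 was that of Pcdhb8. It measured 6.28, 6.20 and 6.22 in knockout and 6.96, 6.46 and 6.19 in wild type cultures, which overlapped (-0.30, interval -0.70 to 0.09). The alpha probe set lay lower in the knockout without overlap (-0.22, interval -0.42 to -0.02, adjusted p = 0.36 in limma). Altogether 7 members lay wholly above the wild type and 2 wholly below, beside 8.4% and 8.26% of all probe sets. The day 4 neuronal mean was 7.62 to 8.16 on knockout arrays and 7.69 to 7.74 on wild type arrays, which overlapped.

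Mosaic cultures at day 4 also passed in no member against the wild type, again with 0% of all probe sets called. Without mosaic replicate 1 of day 4, 281 probe sets passed and 0 members did. Of 24 members 19 lay above the wild type, beside 51.1% of all probe sets, and the median difference was 0.10 beside 0.0053. This count too comes from members that share their arrays. Median deviations by array were 0.14, 0.20 and 0.09 in the mosaic and -0.04, 0.06 and 0.12 in the wild type, with overlap. There were 5 members at an unadjusted p under 0.05, beside 16% of all probe sets. Mosaic arrays lay wholly above the wild type in 7 members and wholly below in 2, beside 9.54% and 8.77%. Pcdhga10 had the lowest p, with 7.28 ± 0.17 in mosaic and 6.97 ± 0.04 in wild type cultures (SD, n = 3). Its log2 difference was 0.31 (interval 0.07 to 0.55, adjusted p = 0.222 in limma). The non-member probe set that lists Pcdhga10 with Gm19774 averaged 11.16 ± 0.12 in mosaic and 11.18 ± 0.06 in wild type cultures. Pcdhb2 differed by 0.45 (0.04 to 0.86), Pcdhb15 by 0.49 (0.03 to 0.94), Pcdhb21 by 0.45 (0.06 to 0.84) and Pcdhb22 by 0.26 (0.03 to 0.48). Knockout and mosaic were set against the same wild type arrays, so the differences of both are not independent. The 24 intervals reached from -0.64 to 0.94 in the mosaic and from -0.70 to 1.05 in the knockout.

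**Figure D4:**
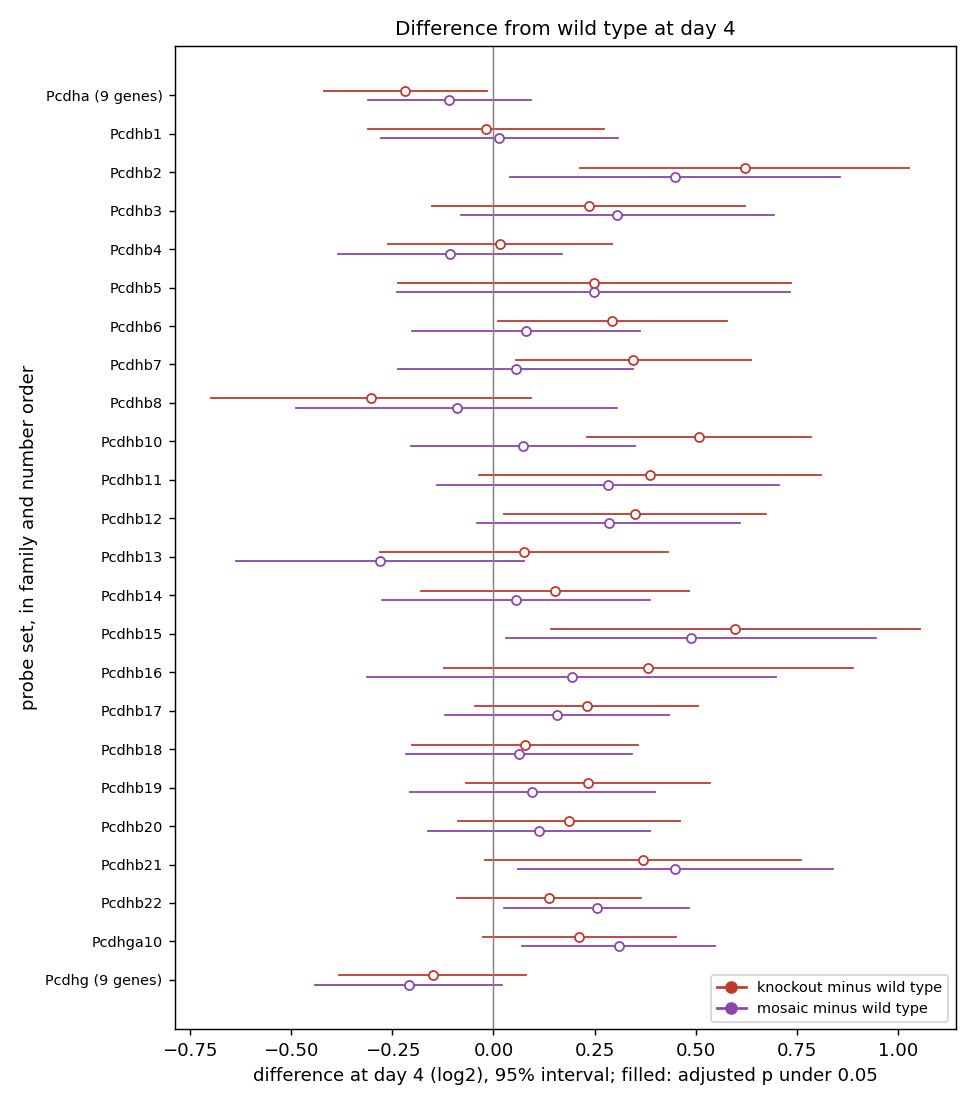
Log2 difference from wild type at day 4 (x axis, dot) with its 95% interval (line) for the 24 tested probe sets (y axis) in knockout and mosaic cultures. No dot is filled, since none passed at an adjusted p under 0.05, and 20 knockout and 19 mosaic dots lie above 0.

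At day 0 no member passed between genotypes either, with 0% of all probe sets called in each of the 3 comparisons in limma. Pcdh19 itself, at -1.27 in knockout minus wild type, did not pass. Knockout minus wild type had a median of 0.0096 over the members, with 13 of 24 above 0 (beside 50.8% of all probe sets) and 0 at an unadjusted p under 0.05, beside 3.67% of all probe sets. Knockout arrays lay wholly above the wild type in 1 member and wholly below in 0, beside 4.74% and 4.43% of all probe sets. Mosaic minus wild type had a median of -0.13 with 5 of 24 above 0 (beside 51.9%) and 1 at an unadjusted p under 0.05, beside 4.43%. Mosaic arrays lay wholly above the wild type in 0 members and wholly below in 3, beside 5.74% and 5.52%. The member with the unadjusted p under 0.05 was Pcdhb14, at 6.23, 5.78 and 6.50 in mosaic and 6.60, 6.73 and 6.67 in wild type neurospheres, where the mosaic lay lower without overlap (-0.49, interval -0.83 to -0.16). Mosaic minus knockout had a median of -0.09 with 4 of 24 above 0 (beside 50.9%) and 4 at an unadjusted p under 0.05, beside 4.2%. Mosaic arrays lay wholly below the knockout in 5 members, beside 4.79%, and wholly above in 0, beside 5.32%. Among the 4 members Pcdhb11 measured 5.93, 5.89 and 5.65 in mosaic and 6.47, 6.26 and 6.55 in knockout neurospheres (-0.60, interval -1.03 to -0.18). The mosaic arrays were the lower ones in each of these examples.

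At day 4 mosaic minus knockout was again without a call (0% of all probe sets) and had 2 members at an unadjusted p under 0.05, beside 5.95%. These were Pcdhb10, with 5.32 ± 0.05 in mosaic and 5.76 ± 0.33 in knockout cultures (SD, n = 3), and Pcdhb13, with 4.64 ± 0.21 and 4.99 ± 0.30. Their log2 differences were -0.43 (-0.71 to -0.16) and -0.36 (-0.71 to -0.0011).

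Whether genotypes differed in the rise itself was tested as a difference of differences. No member passed against the wild type for knockout or mosaic, nor between these, with 0% of all probe sets called in limma. The knockout change exceeded the wild type change in 19 of 24 members and the mosaic change did so in 20, with 19 members in both counts, which share the wild type arrays. Over all probe sets the shares were 50.8% and 49.9%. Members were read on the same arrays, so the member counts are not of independent values. For the knockout the median difference was 0.22 over the members beside 0.0042 over all probe sets, and 2 members had an unadjusted p under 0.05, beside 9.48%. These were the alpha probe set, which was lower, and Pcdhb10 (0.43, interval 0.03 to 0.82, adjusted p = 0.489 in limma).

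For the mosaic the median difference was 0.32 over the members beside -0.00085 over all probe sets, and 5 members had an unadjusted p under 0.05, beside 12.4%. They were Pcdhga10 (0.44), Pcdhb22 (0.39), Pcdhb21 (0.66), Pcdhb14 (0.55) and Pcdhb17 (0.40), all with the larger change in the mosaic and adjusted p of 0.318 to 0.395 in limma. Pcdhb21 shows the pattern by array, at 5.43, 5.81 and 5.47 in mosaic and 4.80, 5.10 and 5.47 in wild type cultures at day 4, against 5.43, 5.26 and 4.95 and 5.52, 5.19 and 5.56 at day 0. Its mosaic arrays were higher at day 4 and its wild type arrays tended the other way, with overlap. Over the members mosaic minus wild type had a median of -0.13 at day 0 and 0.10 at day 4, so both days entered the difference of changes. Pcdhb14 averaged 6.17 in mosaic and 6.67 in wild type cultures at day 0, then 6.93 and 6.87 at day 4. Pcdhga10 averaged 7.05 and 7.17 at day 0, then 7.28 and 6.97 at day 4. A non-member probe set that lists Pcdhga10 with Gm19774 averaged 11.12 in mosaic and 11.05 in wild type cultures at day 0. At day 4 it averaged 11.16 and 11.18, so it did not show a larger rise in the mosaic. Intervals were wide, from -0.72 to 1.27 for the knockout and from -0.63 to 1.24 for the mosaic, so the missing calls do not show equal changes. Mosaic minus knockout changes had 2 members at an unadjusted p under 0.05, beside 4.22%, which were Pcdhb10 (-0.40) and Pcdhb22 (0.38).

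**Figure D5:**
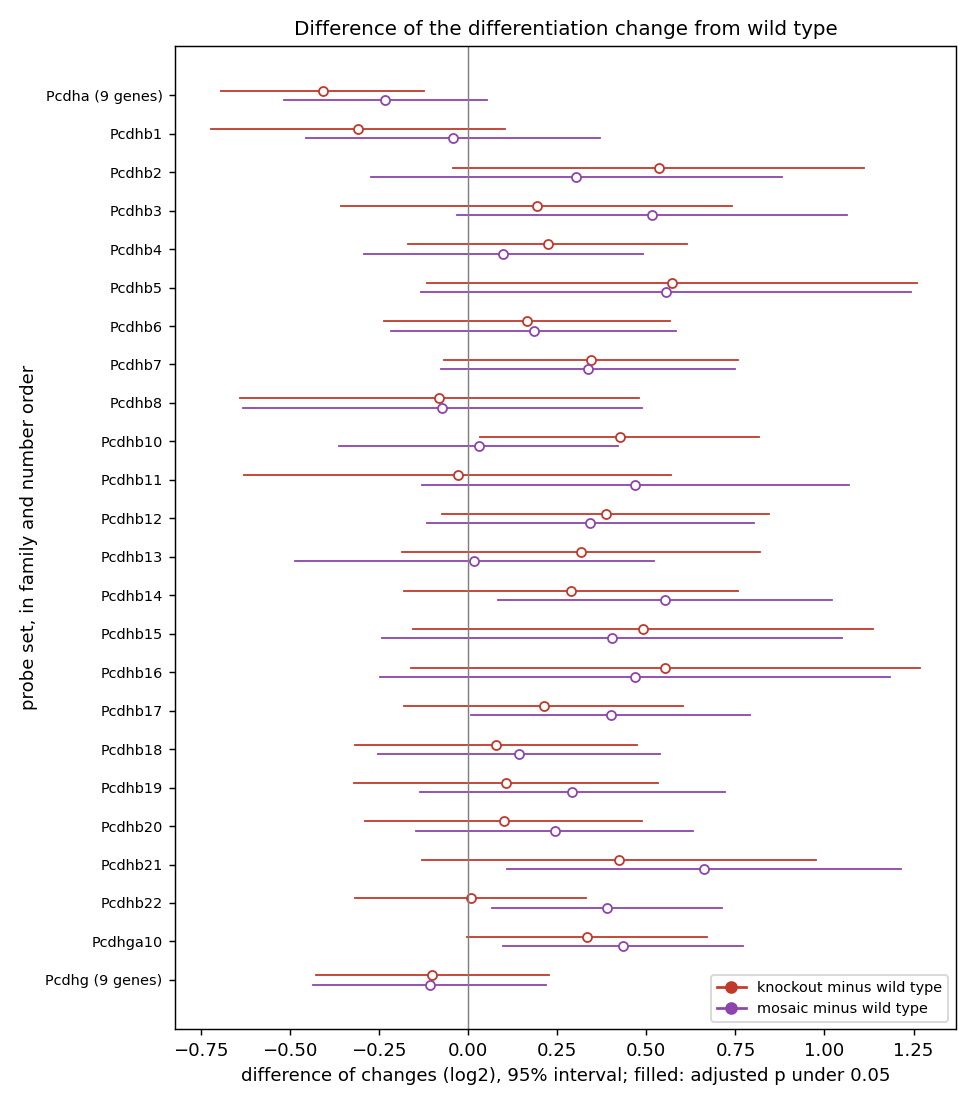
Change over differentiation in knockout or mosaic minus that in wild type cultures (x axis, log2, dot) with its 95% interval (line) for the 24 tested probe sets (y axis). No dot is filled, since none passed at an adjusted p under 0.05. The alpha probe set lies at -0.41 for the knockout, and 19 knockout and 20 mosaic dots lie above 0.

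Genes of the machinery that acts on the cluster's promoters were followed over differentiation. Of 20 listed regulators 18 had a probe set, and 6 fell and 1 rose in the knockout, 6 and 1 in the mosaic, and 9 and 1 in the wild type. Of all probe sets 12.2%, 11.6% and 16% fell in the same order, and 14.6%, 13.8% and 17% rose. Cohesin genes were among those that fell. Rad21, the subunit that closes the cohesin ring, changed by -0.74 in knockout, -0.65 in mosaic and -0.73 in wild type cultures, and Smc1a, a core arm of the ring, by -0.73, -0.85 and -0.71. Stag2, a cohesin subunit that meets CTCF, changed by -0.43, -0.47 and -0.46, and the cohesin loader gene Nipbl by -0.33, -0.37 and -0.54. All 4 passed in each genotype in limma. Ctcf, the boundary factor that binds the promoters, changed by -0.11, -0.14 and -0.10 and passed in none. The gene that rose was Dnmt3a, a DNA methyltransferase, by 0.54, 0.60 and 0.51. Cell cycle genes fell alongside, with all 6 that had a probe set lower in every genotype, and their part in the cohesin values was not tested.

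Partners of the proteins and their processing moved both ways. Of 17 listed genes 15 had a probe set, and 5 rose and 2 fell in the knockout, 5 and 3 in the mosaic, and 5 and 3 in the wild type. Of all probe sets 14.6% rose and 12.2% fell in the knockout, 13.8% and 11.6% in the mosaic, and 17% and 16% in the wild type. Adam10, the protease that sheds gamma protocadherins, changed by -0.43 in knockout, -0.37 in mosaic and -0.52 in wild type cultures, and Ncstn, of the gamma-secretase that cuts the remaining stub, by -0.45, -0.42 and -0.58. Its fellow subunit genes Aph1a (0.42, 0.48 and 0.44) and Psenen (0.47, 0.32 and 0.58) went up. Fyn, a tyrosine kinase, rose by 0.38, 0.45 and 0.30. These 5 passed in each genotype in limma. No gene of either list passed between genotypes on either day, beside 0% of all probe sets tested, so this does not show equal levels.

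Markers of other cells moved beside the betas. Of 11 neuronal genes 7 rose in each genotype, and 0 fell in the knockout, 1 in the mosaic and 1 in the wild type. Of all probe sets 14.6% rose and 12.2% fell in the knockout, 13.8% and 11.6% in the mosaic, and 17% and 16% in the wild type. These shares also stand beside the marker counts below. The mean of the 11 neuronal genes was 7.62 to 8.16, 7.41 to 8.04 and 7.69 to 7.74 in knockout, mosaic and wild type cultures at day 4. At day 0 it was 6.91 to 6.98, 6.76 to 6.82 and 6.84 to 7.02. All 7 oligodendrocyte genes with a probe set rose in every genotype, as did 6 of 7 oligodendrocyte progenitor genes, with 1 lower in the knockout. Of 8 astrocyte genes 6 rose and 2 fell in each genotype, and of 7 neural stem cell genes 1 rose and 4 fell in each. Lists of 5 microglial and 4 endothelial genes stayed at 4.40 to 4.92 on all arrays, with 1 microglial gene higher in the wild type and 0 called otherwise. Of 4 fibroblast genes that passed the filter 1 rose in the wild type and 0 passed in knockout and mosaic. The part of these markers in the beta values was not tested.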

How the data were processed

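Total RNA of 18 neurosphere samples was read on Affymetrix mouse gene arrays. The deposited series table holds log2 values for 41345 probe sets, and the authors' normalization and software were not given in the sources used here. The log base was taken from the value range of 0.722 to 13.97. Symbols came from the array's platform annotation (23521 with 1 symbol, 1814 with several).

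The 21583 named probe sets above the 25th percentile of their array on at least 3 arrays were fitted with limma 3.58.1 in R 4.3.3 (lmFit, eBayes), with a mean for each of 6 groups, 12 contrasts, two-sided tests and Benjamini-Hochberg adjustment. Residual degrees of freedom were 12. The number of arrays limits the precision, with a median SE of 0.128 for a difference of groups. The procedure was also run on simulated data with known changes. Its recovery of changes as small as those of the members is not reported here.

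The members and the lists of regulators, partners and cell type markers were chosen with earlier results of these data known. Named were Pcdh19, up to 8 called members per contrast by adjusted p, the brightest probe set of each subfamily, C-type genes, probe sets listing several members, and up to 4 called genes of each other list. Other members were named for extreme or near-threshold values, after these were seen, as was Ctcf. Alternatives changed the normalization, filter, probe sets tested, spread model, array weights, arrays included, threshold and replicate block. Only some same-numbered arrays deviated together, and no label ties a number to a shared culture or day, so the numbers were not used as pairs.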

Additional observations from a re-analysis of the deposited data

How the results depend on the processing

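The 20 calls of members over differentiation were recomputed under 11 other settings and with each of 18 arrays left out. Of 577 such comparisons 509 kept the call, 68 lost it and 0 changed direction. Leaving out an array of another genotype does not alter the log2 change of a call, so many of these comparisons could move it little. Of the 20 calls 8 were kept in every comparison. The call of Pcdhb12 in the mosaic was lost most often (18 of 29), followed by that of Pcdhb5 in the mosaic (13 of 28). The counts of 0 members between genotypes, and for the difference of changes, stayed at 0 under every one of these settings. Over all probe sets those counts were 0 to 9, except for the 281 without mosaic day 4 replicate 1 in mosaic against wild type. The knockout count of 9 ranged from 5 to 9 with single arrays left out and was 5 at an adjusted p under 0.01. The mosaic count of 9 ranged from 5 to 10 with single arrays left out and was 4 at an adjusted p under 0.01. The wild type count of 2 ranged from 2 to 4 with single arrays left out. It was 6 with quantile normalization, 5 with a filter at the 50th percentile, 4 with a variance trend and robust estimation, 5 with array weights and 4 with only its own groups fitted. It was 1 with 1 probe set per gene, where the alpha probe set drops out, and 1 at an adjusted p under 0.01. With the replicate number as a block the counts were 11 in the knockout, 9 in the mosaic and 6 in the wild type. Pcdhb8 then passed in all 3 (adjusted p = 0.0155, 0.0144 and 0.00446 in limma). Same-numbered arrays correlated in their deviations at -0.15 to 0.17 (median 0.027, with 4 of 45 above 0.1). Of 18 arrays 10 correlated best with their own number. Between the days of 1 genotype all these correlations were positive but weak. They were 0.17, 0.06 and 0.11 in the knockout (replicates 1, 2 and 3), 0.05, 0.05 and 0.01 in the mosaic, and 0.09, 0.05 and 0.07 in the wild type. Scaling moved the share of higher calls over all probe sets in the wild type from 51.5% to 61.5% with quantile normalization and 44.8% with a common array median, and in the mosaic from 54.3% to 62.5% with the common median. The cause of these changes was not tested where none is given.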

Other observations

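Pcdhb9, the member left untested for its dim signal, averaged 3.13 ± 0.25 in knockout, 3.26 ± 0.12 in mosaic and 3.18 ± 0.15 in wild type cultures at day 4 (log2, SD, n = 3). At day 0 it averaged 2.75 ± 0.22, 2.64 ± 0.12 and 2.77 ± 0.28 in the same order. In a fit without the filter its log2 change was 0.38 (adjusted p = 0.0965) in the knockout, 0.62 (adjusted p = 0.00778) in the mosaic and 0.41 (adjusted p = 0.061) in the wild type by limma. A probe set that lists Pcdhga10 together with the unnamed model Gm19774 was not a member. It averaged 11.28 ± 0.06 in knockout, 11.16 ± 0.12 in mosaic and 11.18 ± 0.06 in wild type cultures at day 4. At day 0 it averaged 11.06 ± 0.09, 11.12 ± 0.03 and 11.05 ± 0.13 in the same order. Its day 4 wild type mean was thus not below its mosaic mean, unlike that of the Pcdhga10 member.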
